A study of Homo sapiens with 12 samples.

Results

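HBEGF, AREG, EREG and TGFA encode 4 of the ligands of the EGF receptor, and were taken from the count table as the genes whose Ensembl identifiers carry these symbols. They are 4 of 58735 genes in the table, and all 4 were among the 15471 genes with enough counts to be tested. Each is made as a precursor that spans the plasma membrane, with an EGF-like domain outside the cell. Metalloproteases of the ADAM family, ADAM17 above all, cut the precursor and release the soluble ligand, which binds EGFR on the same or a neighbouring cell. HBEGF and EREG also bind ERBB4, and the membrane precursor of HBEGF can signal without being cut. In macrophages several of these ligands are known as early products of Toll-like receptor stimulation that act on epithelium and fibroblasts during repair.

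The cells were THP-1 macrophages, from a human monocytic leukaemia line, so both groups come from 1 line. The miR-122-5p group received a 30 nM mimic, a synthetic copy of microRNA miR-122-5p, with RNAimax, and the control group a control microRNA mimic in the same way. After 24 h and a rest, both groups were exposed for 4 h to LPS (lipopolysaccharide), a bacterial product sensed by TLR4, so no library shows these genes without LPS or without transfection. Each group had 6 libraries, and no label ties them to separate cultures, so the p-values reflect only how far these libraries differ, and that difference may be technical.

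Library totals ran from 29473750 to 35684464 counts in the miR-122-5p group and from 31019890 to 39468157 in the control group. The slope of each library on transcript GC content, relative to the mean library, was 0.0336 to 0.229 log2 units per 10 percentage points in the miR-122-5p group and -0.318 to 0.0119 in the control group, so the groups did not overlap in this measure. Values corrected for GC content and length trends are therefore given for the 4 ligands and the gene lists, and those with this slope as a covariate for the 4 ligands; for other genes either is given where it changed a call. As the slope differs between the groups without overlap, the fit with this covariate cannot fully separate it from the treatment. Its SE was larger for each of the 4 ligands than in the fit without it. The correction for GC content and length was fitted to these same libraries, so it can also remove a treatment effect that follows GC content or length. A call lost with the covariate or after the correction does not show that the change was absent. The summed level of 12 monocyte and macrophage markers was 3193 to 3771 CPM (counts scaled to library size) in the miR-122-5p group and 2928 to 3501 CPM in the control group. Of its 10 tested markers 4 were higher (TYROBP, ITGAM, MARCO and CEBPB) and 4 lower (CD14, CSF1R, FCER1G and CD163) in the miR-122-5p group. After correction for GC content and length CEBPB was called lower (-0.17, edgeR, adjusted p = 0.00811), and TYROBP (-0.03) and ITGAM (0.11) were not called. That correction also called SPI1 lower (-0.32) and LYZ higher (0.32), though exons of other genes overlap 34% of LYZ. With the slope covariate no monocyte or macrophage marker called higher kept its call (MARCO at 0.49, edgeR, adjusted p = 0.580). The 4 lower markers kept their calls in every fit. CD14, which marks monocytes, averaged 13.6 CPM in the miR-122-5p group and 17.8 CPM in the control group. CD68 was listed at 0.239 CPM in the miR-122-5p group and 0.216 CPM in the control group, but exons of other genes overlap 85.8% of it, so this count does not show that it was absent. Summed epithelial markers, of which EPCAM and KRT14 had no count, lay at 0.307 to 0.818 CPM in the miR-122-5p group and 0.174 to 1.11 CPM in the control group. The fibroblast markers, with LUM at 0, summed to 3.93 to 5.93 CPM in the miR-122-5p group and 2.05 to 4.99 CPM in the control group. Lymphocyte markers, with CD3E and CD3D at 0, summed to 11.3 to 13.6 CPM in the miR-122-5p group and 9.95 to 13.8 CPM in the control group. Hepatocyte markers, with APOB at 0, summed to 88.4 to 114 CPM in the miR-122-5p group and 79.7 to 106 CPM in the control group. Most of that was SERPINA1, at a mean of 91.5 and 85.4 CPM. Of these other cell type markers, APOA1 (0.78), PDGFRB (0.99) and CD79A (0.56) were called higher and none lower without correction. APOA1, a hepatocyte marker at a mean of 12.3 and 7.15 CPM, kept its call in every fit. The calls of PDGFRB and CD79A ended with the slope covariate (edgeR, adjusted p = 0.466 and 0.932). Correction for GC content and length also ended that of CD79A (0.23) and called NKG7 lower (-0.34). The part of all these markers in the results was not tested.

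The mature microRNA that the mimic copies is shown because its seed, bases 2 to 8 in capitals, sets which sites in transcripts were searched (RefSeq, GRCh38.p14, chr18:58451088-58451109, plus strand).
hsa-miR-122-5p: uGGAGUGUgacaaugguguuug
The annotated 3' UTRs of EREG, AREG and TGFA held no match to this seed. That of HBEGF held 1 match of the weakest class, a 6mer (CACTCC), at bases 705 to 710 of its 1456-base 3' UTR on chromosome 5. It is printed with its flanks in transcript sense, with the matched bases in capitals (GENCODE 29, GRCh38, chr5:140333576-140333605, minus strand).
HBEGF 3' UTR site: tcctggccctcCACTCCtcatccccacaat
Of 12874 tested genes with an annotated 3' UTR, 13% had a 6mer as their best match, 3.22% an 8mer, 5.73% a 7mer of bases 2 to 8, 15% a 7mer of bases 2 to 7 with an A opposite base 1 and 63.1% no match. The longest 3' UTRs of EREG and TGFA each held 1 copy of TTATTTATT, the core of AU-rich instability elements, which 9.18% of these genes hold, and those of HBEGF and AREG held none. A match is a description of the letters and not evidence of binding.

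Of the 4 ligands, HBEGF and AREG rose, TGFA fell and EREG did not pass the test in miR-122-5p libraries. The calls come from edgeR's quasi-likelihood test at an adjusted p under 0.05 (Benjamini-Hochberg, over 15471 genes), and each adjusted p below is from that fit unless another is named. The background is high: 50.5% of all tested genes were called, 24.3% in the higher and 26.2% in the lower direction, so 3 of 4 ligands called is not a result about the ligands as a set. The miR-122-5p and control libraries did not overlap for 1 of the 4 ligands, against 29.5% of all tested genes. The ligands lie at very different depths, with at least 12426 counts per library for HBEGF and at most 93 for EREG and TGFA.

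HBEGF, the heparin-binding ligand that also serves as the diphtheria toxin receptor, lies on chromosome 5 (hg38, 140332843 to 140346631, minus strand). Its level was 481.4, 501.1 and 517.6 CPM (lowest, median and highest) in the miR-122-5p group, and 403.0, 420.5 and 492.3 CPM in the control group. The groups overlapped through control library 1, while the other 5 control libraries lay below every miR-122-5p library. HBEGF averaged 501.1 ± 13.1 CPM in the miR-122-5p group and 436.7 ± 36.0 CPM in the control group (SD, n = 6 each), a log2 fold change of 0.20 ± 0.06 (SE, 1.15-fold, adjusted p = 0.0119). Corrected for GC content and length, HBEGF was at 0.19 ± 0.06 (adjusted p = 0.00865). With the GC slope as a covariate the value was 0.29 ± 0.10 and the call was lost (adjusted p = 0.0521). As in all bulk libraries, more cells making a transcript and more of it per cell cannot be told apart.

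AREG, the lower-affinity ligand also made by activated lymphoid and myeloid cells, lies on chromosome 4 (74445134 to 74455009, plus strand). It stood at 16.2, 20.5 and 25.6 CPM (lowest, median and highest) in the miR-122-5p group and at 12.4, 15.3 and 16.7 CPM in the control group. In 5 of the 6 miR-122-5p libraries AREG was above every control library, and library 6 lay within the control range. AREG averaged 20.4 ± 3.58 CPM in the miR-122-5p group and 14.9 ± 1.60 CPM in the control group (SD, n = 6 each), and rose by 0.45 ± 0.11 on the log2 scale (1.37-fold, adjusted p = 0.0017). The call held in every fit that was run, with log2 values from 0.39 to 0.70. AREG was at 0.57 ± 0.11 once GC content and length were corrected for (adjusted p = 0.000126), and the highest value, 0.70 ± 0.20, came with the GC slope as a covariate (adjusted p = 0.0177).

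EREG, a ligand of EGFR and ERBB4 encoded next to AREG on the same strand (74365143 to 74388751), was close to the lower limit of these data, with 16 to 48 counts per library in the miR-122-5p group and 30 to 61 in the control group. Its lowest, median and highest levels were 0.538, 1.01 and 1.35 CPM in the miR-122-5p group and 0.935, 1.35 and 1.68 CPM in the control group. Libraries 1 and 2 of the miR-122-5p group lay below all control libraries, and the other 4 overlapped with them. EREG averaged 0.974 ± 0.311 CPM in the miR-122-5p group and 1.38 ± 0.274 CPM in the control group (SD, n = 6 each), with a log2 fold change of -0.50 ± 0.27 that did not pass the test (adjusted p = 0.129). Its transcript has a GC content of 36.1%, the lowest of the 4, against 50.9% for HBEGF, 45.9% for TGFA and 45.3% for AREG. After correction for GC content and length EREG was at -0.14 ± 0.25 (adjusted p = 0.683), and with the slope covariate its sign turned, to 0.33 ± 0.47 (adjusted p = 0.693), so no direction can be given for it.

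TGFA, transforming growth factor alpha and the closest relative of EGF among the 4, lies on chromosome 2 (70447280 to 70554193, minus strand). The lowest, median and highest levels of TGFA were 0.547, 0.934 and 1.00 CPM in the miR-122-5p group and 1.36, 1.59 and 2.40 CPM in the control group. Every miR-122-5p library was below every control library, and control libraries 1 and 4, the highest for TGFA, were also the highest for HBEGF within their group. TGFA averaged 0.855 ± 0.182 CPM in the miR-122-5p group and 1.78 ± 0.482 CPM in the control group (SD, n = 6 each), and fell by 1.06 ± 0.25 on the log2 scale (0.48-fold, adjusted p = 0.00139). These levels rest on 20 to 36 counts per library in the miR-122-5p group and 41 to 93 in the control group. Corrected for GC content and length, TGFA was at -0.91 ± 0.25 (adjusted p = 0.00489). With the GC slope as a covariate the value was again -0.91 but the SE was 0.46, and the call was lost (adjusted p = 0.192).

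**Figure D1:**
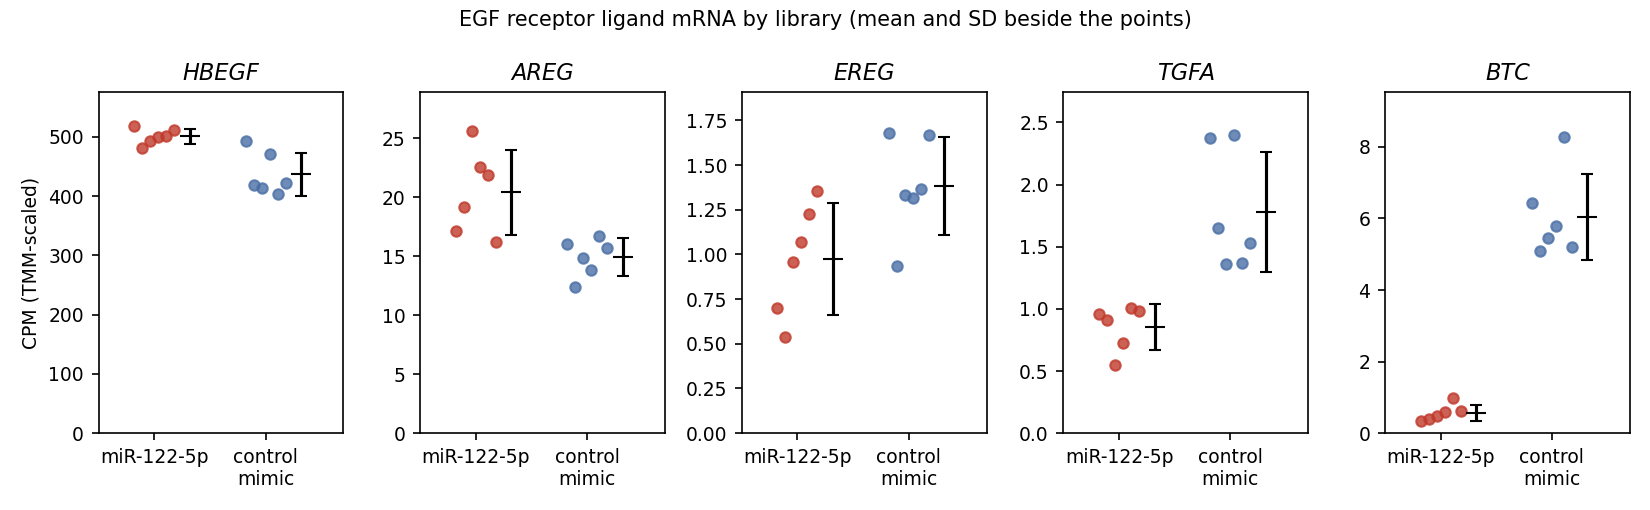
Level of each ligand, and of betacellulin (BTC), in each library in TMM-scaled CPM on linear axes from 0; points are libraries, with miR-122-5p left of control, and bars beside them are the mean and SD of 6. For TGFA and BTC no miR-122-5p point reaches the control points, while HBEGF, AREG and EREG overlap between groups.

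The plot of levels by library shows that the ligands differ more in level than in response. Levels between genes were compared as CPM per kb of annotated exon. HBEGF was at 166.0 ± 4.34 CPM per kb in the miR-122-5p group and 144.7 ± 11.9 CPM per kb in the control group (SD, n = 6 each). AREG came next, at 12.4 ± 2.17 CPM per kb in the miR-122-5p group and 9.05 ± 0.969 CPM per kb in the control group. The remaining ligands were far below both. TGFA was at 0.172 ± 0.0367 CPM per kb in miR-122-5p libraries and 0.359 ± 0.0971 CPM per kb in control libraries. EREG was at 0.170 ± 0.0544 CPM per kb in miR-122-5p libraries and 0.242 ± 0.0480 CPM per kb in control libraries. HBEGF and AREG did not overlap with each other or with the rest in either group, whereas TGFA and EREG overlapped with each other in both groups. HBEGF made up 92.9 ± 1.20% of the summed level of the 4 ligands in the miR-122-5p group and 93.7 ± 0.751% in the control group. The share of AREG was 6.93 ± 1.22% in the miR-122-5p group and 5.89 ± 0.764% in the control group, and EREG and TGFA were each under 1% in both groups.

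**Figure D2:**
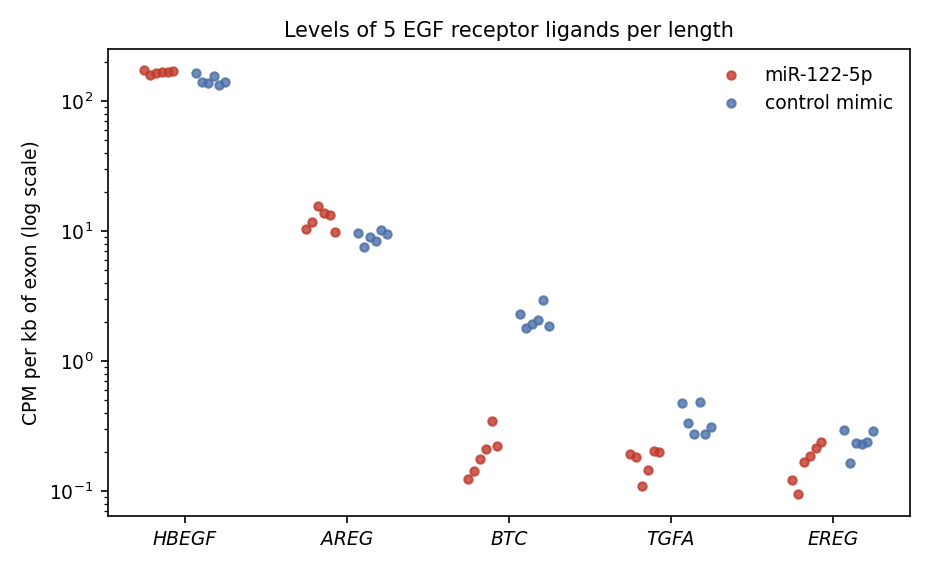
CPM per kb of exon (log scale) of the 4 ligands and BTC in each library, miR-122-5p left of control for each gene. HBEGF and AREG stand apart at the top in both groups, while TGFA, EREG and, in the miR-122-5p group only, BTC lie together under 1 CPM per kb.

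Whether pairs of ligands differed in their response was tested on the log2 ratio of the 2 levels within each library, with a two-sided exact permutation test over the 12 libraries, adjusted over the 6 pairs. The smallest p that 6 against 6 can give is 0.002165. The log2 ratio of HBEGF over TGFA was 9.13 ± 0.31 in the miR-122-5p group and 7.93 ± 0.25 in the control group (SD, n = 6 each), a difference of 1.20 with no overlap (exact p = 0.002165, adjusted p = 0.006494). The log2 ratio of AREG over TGFA was 4.50 ± 0.54 in the miR-122-5p group and 3.06 ± 0.42 in the control group, a difference of 1.44, also with no overlap (exact p = 0.002165, adjusted p = 0.006494). For both, the ratio in every miR-122-5p library was above that in every control library. EREG over AREG, the ratio of neighbouring genes, was -4.35 ± 0.51 in the miR-122-5p group and -3.39 ± 0.18 in the control group, with a difference of -0.96 (exact p = 0.006494, adjusted p = 0.01299). HBEGF over EREG differed by 0.72 (8.98 ± 0.46 in the miR-122-5p group, 8.26 ± 0.27 in the control group; exact p = 0.008658, adjusted p = 0.01299). The groups overlapped for both ratios with EREG, and after correction for GC content and length the difference for HBEGF over EREG was 0.35 and no longer passed (exact test, adjusted p = 0.0584). No difference was called for HBEGF over AREG (-0.24, exact p = 0.1169, adjusted p = 0.1299) or for EREG over TGFA (0.48, exact p = 0.1299, adjusted p = 0.1299), which does not show that these pairs responded alike. After the correction both of these passed, at -0.36 and 0.69 (exact test, adjusted p = 0.0390 for each). No ratio was tested with the GC slope as a covariate, the fit in which TGFA lost its call and EREG turned in sign.

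**Figure D3:**
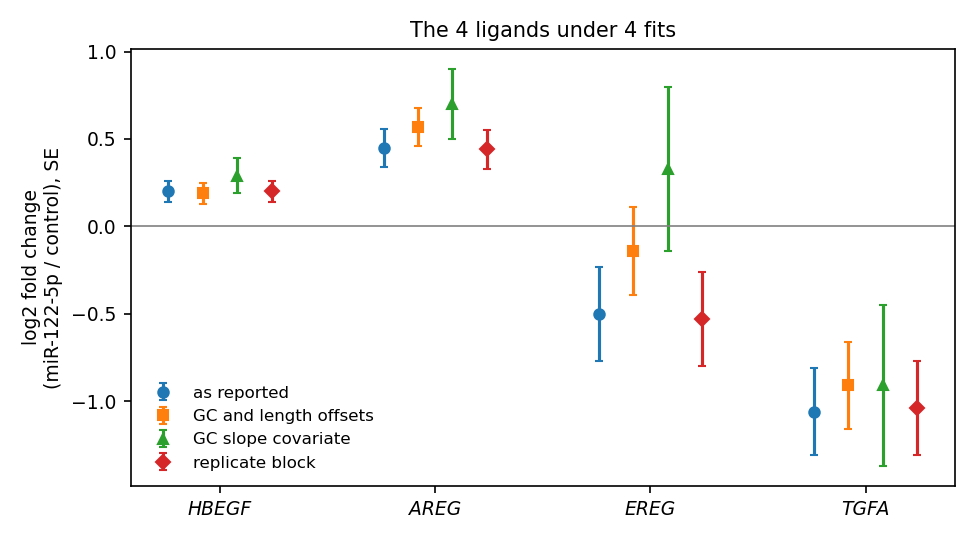
Log2 fold change with SE of the 4 ligands (miR-122-5p over control) as reported, corrected for GC content and length, with the GC slope of each library as a covariate, and with the replicate number as a block. HBEGF and AREG stay above 0 and TGFA below it in all 4 fits, while EREG lies below 0 in 3 and above it in the fit with the slope.

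AREG and EREG share a stretch of chromosome 4 with other ligand genes and with a cluster of CXC chemokines, so their promoters (250 bases before to 50 after the annotated start, RefSeq, GRCh38.p14) are shown with the searched motifs in capitals. AREG is at chr4:74444886-74445185 and EREG at chr4:74364895-74365194, both on the plus strand.
AREG promoter: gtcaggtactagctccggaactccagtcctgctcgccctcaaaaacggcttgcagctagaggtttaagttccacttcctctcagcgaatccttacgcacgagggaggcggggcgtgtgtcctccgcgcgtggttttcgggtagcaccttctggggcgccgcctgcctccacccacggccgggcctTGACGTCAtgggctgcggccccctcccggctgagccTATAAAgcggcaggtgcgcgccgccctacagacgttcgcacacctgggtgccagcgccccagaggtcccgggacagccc
EREG promoter: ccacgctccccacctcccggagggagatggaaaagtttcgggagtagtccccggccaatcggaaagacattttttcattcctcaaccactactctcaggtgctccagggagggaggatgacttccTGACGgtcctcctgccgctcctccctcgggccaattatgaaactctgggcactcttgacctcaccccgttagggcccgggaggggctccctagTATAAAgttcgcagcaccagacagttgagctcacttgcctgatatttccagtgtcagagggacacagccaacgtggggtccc
The AREG window holds TGACGTCA, the full cAMP response element bound by CREB family factors, at -65 to -58 from the start, and TATAAA at -29 to -24. The EREG window holds only the shorter TGACG at -125 to -121, with TATAAA at -32 to -27. Both strands of 35116 promoter windows were searched: 1.85% hold TGACGTCA, 24.6% the shorter TGACG, which every full element includes, 11.5% TATAAA and 7.71% the AP-1 motif TGANTCA. The AP-1 motif was in none of the windows of the 4 ligands, which says only that these letters are not there.

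Within 500 kb of the start of EREG, no tested neighbour of AREG was called higher with it. BTC, betacellulin, a ligand of EGFR and ERBB4 that starts 430 kb beyond EREG, had 0.349 to 0.977 CPM in the miR-122-5p group and 5.08 to 8.27 CPM in the control group. The groups did not overlap, and BTC fell by 3.38 ± 0.22 on the log2 scale (0.573 ± 0.224 CPM in the miR-122-5p group, 6.03 ± 1.20 CPM in the control group, SD, n = 6 each, adjusted p = 6.00e-11). In control libraries BTC, at 2.14 ± 0.425 CPM per kb, was above TGFA and EREG, while in miR-122-5p libraries, at 0.204 ± 0.0796 CPM per kb, it overlapped with both. Of the chemokines, CXCL1 fell by 0.40 ± 0.10 (adjusted p = 0.00288) but was at 0.04 with the GC slope covariate, and CXCL2 (-0.04 ± 0.09), CXCL3 (-0.25 ± 0.11) and CXCL5 (-0.12 ± 0.56) were not called; CXCL2 and CXCL5 had the other sign after correction for GC content and length (0.05 and 0.23). CXCL3 (adjusted p = 0.0763) was called with a replicate block (-0.23, adjusted p = 0.0261), without the filter on low counts (-0.23, adjusted p = 0.0198) and without control library 1 (-0.31, adjusted p = 0.0171). MTHFD2L, a mitochondrial folate enzyme, was not called either (-0.27 ± 0.21, adjusted p = 0.300; 0.10 after the correction). EPGN, the epigen gene between MTHFD2L and EREG, had 2 counts in 1 miR-122-5p library and 0 in the other 11 libraries, and with the platelet chemokine genes PF4 and PPBP it was not tested. PARM1, within 500 kb of AREG alone, fell by 0.33 ± 0.11 (adjusted p = 0.0155), a call that ended after that correction for GC content and length (-0.16, adjusted p = 0.183), with the slope covariate (-0.17, adjusted p = 0.606) and when library 3 of the miR-122-5p group was left out (-0.24, adjusted p = 0.0505). Beside HBEGF, neither PFDN1 (-0.03 ± 0.07) nor SLC4A9 (-0.34 ± 0.58) was called; SLC4A9, at under 1 CPM, was at -2.17 with the slope covariate (adjusted p = 0.152). Beside TGFA, ADD2, beta-adducin of the membrane skeleton, fell by 1.35 ± 0.23 with no overlap (adjusted p = 5.46e-05; -2.40 with the slope covariate), and FAM136A was not called (0.15 ± 0.10; 0.23 after the correction, adjusted p = 0.0509, and 0.23 without control library 1, adjusted p = 0.0379).

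**Figure D4:**
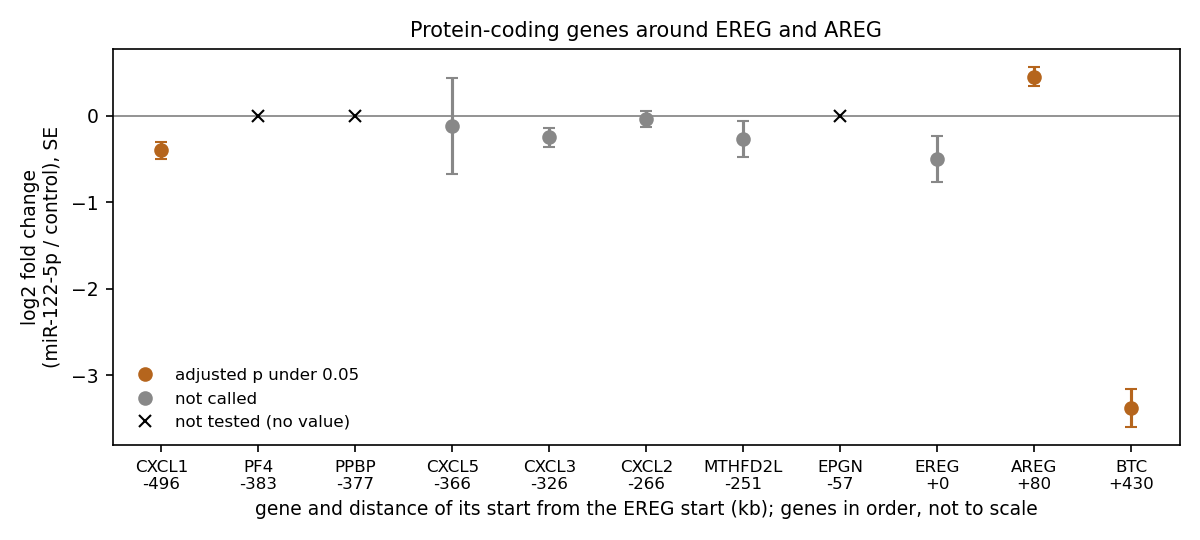
Log2 fold change with SE (miR-122-5p over control) of protein-coding genes whose starts lie within 500 kb of that of EREG, in chromosomal order and not to scale, with distances in kb; crosses mark genes with too few counts. Only AREG is called above 0, and BTC lies far below the rest at -3.38.

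The other genes of ligand, receptor and relay function were counted from lists, beside a median log2 fold change of 0.01 over all tested genes. Of all 15471 tested genes, 3606 were called higher and 3636 lower after correction for GC content and length (median 0.03). With the slope covariate 1117 of them were higher and 1887 lower (median -0.01). Among 7 other ErbB ligands 3 were tested, with 1 lower (BTC) and none higher (median -0.46, -0.79 after the correction and -0.95 with the slope covariate). NRG1, neuregulin 1, was at 0.03 ± 0.11 (adjusted p = 0.850), and NRG2 at -0.46 ± 0.21 (adjusted p = 0.0738). Once GC content and length were corrected for, both were called, NRG1 at 0.23 (adjusted p = 0.0429) and NRG2 at -0.79 (adjusted p = 0.00234); NRG2 was also called without control library 1 (-0.60, adjusted p = 0.00656). EGF itself was too low to test, at 0.150 ± 0.113 CPM in the miR-122-5p group and 0.745 ± 0.305 CPM in the control group (SD, n = 6 each), as were NRG3 and NRG4. The receptor for all 4 ligands was nearly absent from these libraries: EGFR averaged 0.118 ± 0.0779 CPM in the miR-122-5p group and 0.0291 ± 0.0321 CPM in the control group, with at most 8 counts in a library. ERBB3, which signals as a partner of other receptors, was also too low to test. ERBB2, the co-receptor without a ligand, was at 0.36 ± 0.27 (2.15 ± 0.538 CPM in the miR-122-5p group, 1.67 ± 0.741 CPM in the control group, adjusted p = 0.288), and ERBB4 was at -0.13 ± 0.40 (adjusted p = 0.817). Neither was called (median 0.12, and 0.16 after the correction), although ERBB2 was with the slope covariate (1.45, adjusted p = 0.0293; 0.15 after correction for GC content and length), and ERBB4 turned to 0.17 after that correction.

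Of 9 genes whose products bind or accompany HBEGF at the cell surface, 6 were higher, 1 lower and 2 not called (median 0.22). CD9, the tetraspanin that complexes with the HBEGF precursor, averaged 472.9 ± 20.3 CPM in the miR-122-5p group and 393.2 ± 30.6 CPM in the control group (SD, n = 6 each), and rose by 0.27 ± 0.06 without overlap (adjusted p = 0.00146). The heparan sulfate proteoglycans SDC1 (0.92 ± 0.20), GPC1 (0.56 ± 0.10) and SDC4 (0.22 ± 0.08) and the tetraspanin CD82 (0.35 ± 0.08) also rose. NRDC, nardilysin, which binds HBEGF and enhances its shedding, was the gene that fell, by 0.82 ± 0.07 (103.3 ± 2.80 CPM in the miR-122-5p group, 182.4 ± 16.3 CPM in the control group, adjusted p = 1.97e-09). After correction for GC content and length 4 were higher and 2 lower (median 0.09), and the calls of GPC1 (0.05, adjusted p = 0.455) and CD82 (0.09, adjusted p = 0.169) ended; with the slope covariate that of SDC1 ended too (0.67, adjusted p = 0.245), while SDC4 was at 0.47 and NRDC at -0.54. Of 6 genes of ligand trafficking 5 were tested (not RHBDL2), with 2 higher and none lower (median 0.37), and with 4 higher and none lower after the correction (median 0.29). The 2 were NKD2, which escorts TGFA-bearing vesicles to the cell surface (1.11 ± 0.22, adjusted p = 0.000194; 0.53 after the correction), and RNF121 (0.37 ± 0.10, adjusted p = 0.00349); both calls ended with the slope covariate (adjusted p = 0.252 and 0.378). In that fit 2 other genes of the list were called higher and none lower (median 0.35).

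Among 12 sheddases and their regulators 6 were higher and 4 lower (median 0.12), against 4 higher and 3 lower after correction for GC content and length (median 0.05). The sheddases themselves went both ways: ADAM15 (0.57 ± 0.09) and ADAM8 (0.64 ± 0.12) rose, as did RHBDF1 (0.44 ± 0.08), which carries ADAM17 to the surface, while ADAM19 fell by 1.51 ± 0.21. The related RHBDF2, at a higher CPM than RHBDF1 in both groups, was called lower (-0.22 ± 0.09, adjusted p = 0.0333). RHBDF2 was at -0.59 after correction for GC content and length and at -0.60 with the slope covariate, but was not called in every fit (highest adjusted p = 0.113). The correction left ADAM19 at -1.58 and ADAM15 at 0.16 and ended the calls of ADAM8 (0.24, adjusted p = 0.0562) and RHBDF1 (0.06, adjusted p = 0.414), and with the slope covariate that of ADAM15 ended too (0.13, adjusted p = 0.419). TIMP3, the inhibitor of ADAM17, rose by 0.71 ± 0.07 (5420 ± 357 CPM in the miR-122-5p group, 3305 ± 312 CPM in the control group, adjusted p = 2.53e-08), whereas the fall of ADAM17, 0.35 ± 0.07 (adjusted p = 0.000255), was not called after correction for GC content and length (-0.03, adjusted p = 0.704).

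Genes that act behind the receptor changed in both directions. Of 20 tested brakes of receptor signalling (LRIG3 and CBLC were too low to test), 11 were lower and 3 higher (median -0.26). After correction for GC content and length 7 were lower and 7 higher (median -0.05), and with the slope covariate 4 were lower and 2 higher (median 0.10), so the brakes had no common direction across these fits. Those called lower without correction included the ubiquitin ligase CBLB (-0.87 ± 0.11), the ERK phosphatase DUSP6 (-0.44 ± 0.06, adjusted p = 1.33e-06) and SPRY2, a Sprouty inhibitor (-0.42 ± 0.07), while LRIG1, which promotes receptor degradation, rose by 0.81 ± 0.13. Of 27 genes that relay the signal to ERK, 13 were lower and 5 higher (median -0.17), and 13 lower and 6 higher after the correction (median -0.12). Among them SOS1, which loads RAS with GTP, was at -0.91 ± 0.11, the lipid kinase subunit PIK3CA at -0.76 ± 0.10 and the docking protein GAB1 at -1.28 ± 0.22, while MAPK3, which encodes ERK1, rose by 0.73 ± 0.09 (adjusted p = 4.05e-07). Correction for GC content and length left SOS1 at -0.57, PIK3CA at -0.37 and MAPK3 at 0.40, and the slope covariate ended the calls of SOS1 (adjusted p = 0.0556), PIK3CA (adjusted p = 0.0646) and GAB1 (-0.83, adjusted p = 0.137). The early genes that ERK induces went both ways without correction, with 6 of 24 higher, 6 lower and 12 not called (median -0.05). After the correction 4 were higher and 10 lower (median -0.09), and with the slope covariate 0 were higher and 5 lower (median -0.16). MYC (0.68 ± 0.10), JUN (0.40 ± 0.09) and ETV4 (1.23 ± 0.17) were higher, and the ternary complex factor ELK4 (-0.80 ± 0.09) and the urokinase receptor PLAUR (-0.51 ± 0.07) were lower. With the slope covariate the calls of MYC (0.41, adjusted p = 0.0734), ETV4 (0.68, adjusted p = 0.137) and JUN (-0.03, adjusted p = 0.904) ended, and ELK4 was at -0.45. Correction for GC content and length left JUN at 0.24 and ELK4 at -0.47.

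The prostaglandin E2 and cAMP genes, a route known to induce AREG in several cell types, were mostly lower: 11 of 18 fell, 1 rose and 6 were not called (median -0.40). After correction for GC content and length 9 were lower and 1 higher (median -0.26), and with the slope covariate 5 were lower and 1 higher (median -0.34). CREM, a cAMP-responsive factor that binds the same element as CREB, averaged 18.6 ± 2.72 CPM in the miR-122-5p group and 77.9 ± 6.71 CPM in the control group (SD, n = 6 each), and fell by 2.06 ± 0.09 (adjusted p = 1.49e-13). The prostaglandin receptor PTGER4 (-0.65 ± 0.06), the cAMP phosphodiesterase PDE4B (-1.05 ± 0.09), the orphan nuclear receptor NR4A3 (-0.40 ± 0.08) and PTGS2, cyclooxygenase 2 (-0.52 ± 0.10), fell too. PRKACA, the catalytic subunit of protein kinase A, was the gene that rose (0.81 ± 0.08, adjusted p = 6.55e-08). PTGS2 was at -0.18 when corrected for GC content and length, and at 0.01 with the slope covariate (adjusted p = 0.978). Across all lists 29 of 120 tested genes were higher and 47 lower (median -0.09), against 24.3% higher and 26.2% lower among all genes. After the correction 31 of the 120 were higher and 46 lower, against 3606 higher and 3636 lower of all 15471 genes. With the slope covariate 13 were higher and 23 lower, against 1117 and 1887 of all genes. Counts and medians are given without a test of the lists.

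**Figure D5:**
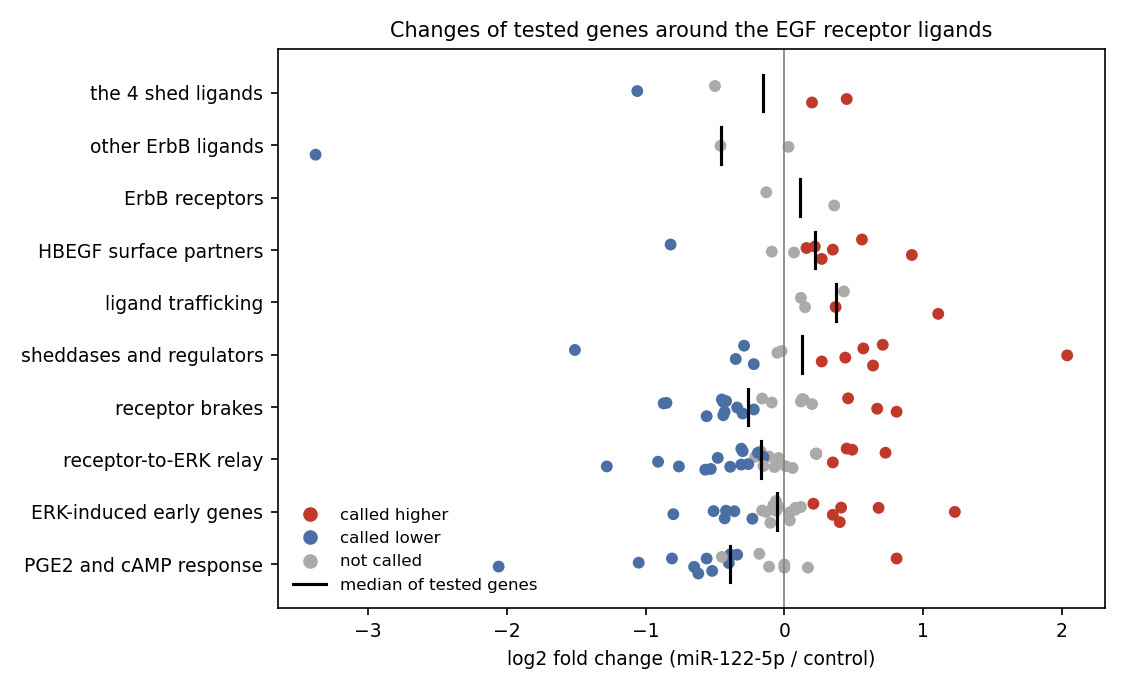
Log2 fold change (miR-122-5p over control) of each tested gene, by list, with the median of each list as a bar; red is called higher, blue called lower and grey not called. The 4 ligands lie on both sides of 0, BTC is the point at -3.38 and CREM the point at -2.06.

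The genes whose profiles were most like each ligand were sought among 8069 tested protein-coding genes, by the root mean square difference of centred log2 CPM over the 12 libraries. For HBEGF, whose own spread by this measure was 0.128, they were BTG2 (0.0557), GOT1 (0.0586) and MAEA (0.0633). A smaller value means a closer profile, but the measure grows with the spread of the ligand, so values are not ranked between ligands. For AREG, with a spread of 0.292, they were TRIM47 (0.140), C11orf45 (0.149) and RTL6 (0.151). For EREG, with a spread of 0.444, they were ELOVL7 (0.198), TSLP (0.208) and SPAST (0.210). For TGFA, with a spread of 0.589, they were SNX27 (0.247), NAGK (0.255) and DHX58 (0.258). These values describe likeness over 12 libraries that share 2 treatments.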

How the data were processed

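The authors deposited raw counts per gene for 12 libraries (NEBNext Ultra kit). Per the submitters' processing notes the tools include HISAT2 2.0.5 and featureCounts 1.5.0-p3 with build hg38; settings, annotation and strand use: not given in the sources used here. Columns named nc were taken as the control mimic by name and number. Among counts of 1 to 10, 64 to 73% were even, so a count need not be 1 fragment. Symbols, coordinates, transcript GC content and 3' UTRs came from GENCODE 29, which held all 58735 identifiers.

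Genes were filtered with filterByExpr (15471 kept), scaled by TMM and tested with edgeR 4.0.16 in R 4.3.3 (quasi-likelihood test, Benjamini-Hochberg adjustment, threshold 0.05, no covariate), after the script was tested on simulated data. In that simulation 45.5% of planted log2 changes of 0.5 were recovered, 83.6% of those of 1 and 97% of those of 2, with 10 false calls. A gene that was not called may therefore still have changed by such an amount. The simulation planted 66 or 67 genes at each size among 15471 and held no GC trend. In the data 50.5% of genes were called, so the simulated rates need not hold for them. Log2 CPM in ratios and profiles used a prior count of 2. Alternatives were DESeq2 1.42.0, limma 3.58.1 (voom), other scalings and filters, a replicate block, removal of GC and length trends (natural splines with 4 degrees of freedom per library, as offsets), the GC slope of each library as a covariate, and leaving out each library. Each list names its untested genes and up to 6 tested genes of smallest p, and RHBDF2 was named in addition, beside RHBDF1. The ligands, lists and alternatives were chosen with earlier results of these data known. SDs cover the libraries, and counting error is not removed from them. Chi-square per degree of freedom between libraries of a group was 7.38 to 65.5, so none agreed within sampling noise. Exons of other genes overlap none of the 4 ligands, but 85.8% of CD68, 40.5% of DUSP6, 38.1% of NRG4, 35.8% of PIK3CA, 51.5% of TRIM47, 19.3% of GOT1, 13.6% of ADAM17, 12.9% of LRIG1 11.8% of CEBPB and 11.0% of NRDC, whose counts are uncertain to that extent.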

Additional observations from a re-analysis of the deposited data

Results flagged for a closer look

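In 138 groups of 6 libraries examined, 2 genes had a library far from the others of its group, and none was 1 of the 4 ligands. NRG1 had 21.47 CPM in control library 5, while the other control libraries lay at 16.15 to 17.93 CPM. FAM136A, the neighbour of TGFA, had 20.75 CPM in miR-122-5p library 2, while the others lay at 17.43 to 18.62 CPM. Chance alone marks about 1 in 20 such groups.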

How the results depend on the processing

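AREG kept its call in all alternatives, TGFA and HBEGF in all but the GC slope covariate (-0.91, adjusted p = 0.192, and 0.29, adjusted p = 0.0521), and EREG was called in none and turned to 0.33 with that covariate. The covariate left 3004 genes called in all, 23 of the listed genes lower and 13 higher. Leaving out 1 library at a time gave 0.17 to 0.24 for HBEGF, 0.39 to 0.52 for AREG, -0.61 to -0.37 for EREG, -1.13 to -0.94 for TGFA, 41 to 49 listed genes lower and 28 to 31 higher, and 7235 to 7879 genes called in all. It gave differences of 0.59 to 0.82 for HBEGF over EREG, -0.31 to -0.16 for HBEGF over AREG, 1.09 to 1.25 for HBEGF over TGFA, -1.12 to -0.83 for EREG over AREG, 0.36 to 0.65 for EREG over TGFA and 1.26 to 1.55 for AREG over TGFA. Removal of GC and length trends moved HBEGF over EREG to 0.35 (adjusted p = 0.0584), HBEGF over AREG to -0.36 and EREG over TGFA to 0.69 (both adjusted p = 0.0390). The cause of these shifts was not tested, and no ratio was run with the GC slope covariate.

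Same-numbered libraries did not deviate together (correlations from -0.105 to 0.066, 1 of 6 miR-122-5p libraries most like its own number). These deviations include library-wide trends such as the GC slope, so the weak correlations cannot exclude that the numbers pair the libraries. With the replicate block HBEGF was at 0.20, AREG at 0.44, EREG at -0.53 and TGFA at -1.04, with no call of a ligand changed, and CXCL3 passed (-0.23, edgeR, adjusted p = 0.0261). For the ratios the block was another test, which flips the signs of the differences between same-numbered libraries. EREG over TGFA (0.48) passed in it (sign-flip test, adjusted p = 0.0375), the same value as for HBEGF over TGFA and AREG over TGFA. Because it is not known whether the numbers pair the libraries, no conclusion is drawn from that test.

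Other genes turned in sign, most of them uncalled. Removal of the trends, alone and with the block, gave ERBB4 0.17 and 0.21, MTHFD2L 0.10 and 0.09, CXCL2 0.05 in both and TRIM47 -0.15 and -0.14, and alone it gave CXCL5 0.23. The slope covariate gave CXCL5 0.67, CXCL2 0.21, CXCL1 0.04, MTHFD2L 0.15, PFDN1 0.11, ELOVL7 0.37, TSLP 0.01, PTGS2 0.01 and JUN -0.03. Library totals without composition scaling gave PFDN1 0.01 and CXCL2 0.00, and limma-voom gave SLC4A9 0.31. Without 1 library the signs of NRG1 (-0.04 to 0.09), ERBB4 (-0.30 to 0.06), CXCL2 (-0.08 to 0.03), CXCL5 (-0.64 to 0.15), PFDN1 (-0.06 to 0.02) and SLC4A9 (-0.60 to 0.19) also turned. In all, 63 values of single genes lost a call, 10 gained one and 31 turned, while 1323 kept direction and call.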
